A study of Rattus norvegicus with 30 samples.

Results

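The data described here concern 10 genes for heat shock proteins of the cytosol and of mitochondria in primary hippocampal neurons of the rat. They were chosen by symbol as the main families of the heat shock response, and are 10 of the 21993 genes listed in the deposited tables. The neurons came from wild-type Wistar rat embryos of embryonic day 18 and had been kept in culture for 7 days. They were treated with dimethyl fumarate (DMF) at 30 µM, its monomethyl ester metabolite monomethyl fumarate (MMF) at 30 µM, or cannabidiol (CBD) at 6 µM. The vehicle was dimethyl sulfoxide (DMSO) for both fumarates and ethanol (EtOH) for CBD, at 0.2% in each case. RNA was taken after 4 h or 24 h, which gave the groups DMSO_4h, DMF_4h, MMF_4h, EtOH_4h, CBD_4h and the same 5 at 24 h, each with 3 libraries numbered 1 to 3. The 30 libraries held between 15108132 and 25367834 reads on genes, with a median of 20088658.

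Heat shock proteins are chaperones, which bind unfolded or newly made proteins, keep them from aggregating and help them to fold. The HSP70 chaperones hold and release their clients in a cycle that J-domain proteins start and nucleotide exchange factors reset, HSP90 completes the folding of many kinases and receptors, and a separate chaperonin folds proteins inside mitochondria. When unfolded protein builds up in the cytosol, heat shock factor 1 binds inverted repeats of a short block in the promoters of these genes and raises their transcription. Neurons are known for a high threshold of this response.

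By role, *Hspa1b* is an inducible and *Hspa8* the constitutive cytosolic HSP70, *Dnajb1* and *Dnaja1* are J-domain partners of HSP70, and *Hsph1* and *Bag3* are nucleotide exchange factors, of which *Bag3* also carries damaged proteins to autophagy. *Hsp90aa1* is the stress-inducible cytosolic HSP90, *Hspb1* a small heat shock protein, and *Hspd1* and *Hspe1* are the 2 parts of the mitochondrial chaperonin. In the rat assembly mRatBN7.2, all 10 are protein-coding genes. *Hspd1* (chr9:56579201-56589662) and *Hspe1* (chr9:56589789-56593089) lie next to each other with 126 bases between them. *Hspa8* lies at chr8:41183264-41187259, *Hsph1* at chr12:5390922-5410224, *Dnajb1* at chr19:24522717-24526458 and *Bag3* at chr1:183102871-183126858. *Hspa1b* (chr20:3856006-3873240) is annotated over 17222 bases of its near-identical neighbour *Hspa1a*, and the counting of reads that fit both is not given in the sources used here. Its own counts were between 14 and 86 reads per library those of *Hspa1a* at most 1 read, and those of an unnamed protein-coding gene that shares 6617 bases with it at most 14 reads, so the values of *Hspa1b* are uncertain.

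The promoters of these genes are where heat shock factor would bind, so the windows from 250 bases before to 50 bases after each start were read from the RefSeq promoter table of the rat assembly GRCr8, whose coordinates differ from those of the deposited files. Of the 10 genes, 8 were matched by symbol, and *Hspa1b* and *Hsp90aa1* were not. A pair of blocks was searched as GAANNTTC or TTCNNGAA, each of which is its own reverse complement, and a run of 3 blocks as GAANNTTCNNGAA or TTCNNGAANNTTC, which are reverse complements of each other, so that both strands were covered. Each run of 3 blocks contains both pairs. A run of 3 blocks was present in 5 of the 8 promoters of heat shock proteins and in 267 of all 33469 promoters (0.798%), and a pair in 8 of 8 and in 5305 of all promoters (15.9%). The 250 bases before the start are shown for 5 genes, namely *Hspa8*, *Hsph1* and *Dnajb1*, whose DMF effect changed between times in the results below, *Bag3*, the gene called at 24 h, and *Hspe1*, whose window carries the longest run, with every pair or run in capitals. They lie at chr8:50080264-50080513 on the plus strand for *Hspa8*, chr12:10427118-10427367 on the plus strand for *Hsph1*, chr19:41431142-41431391 on the minus strand for *Dnajb1*, chr9:64084077-64084326 on the plus strand for *Hspe1* and chr1:192533210-192533459 on the plus strand for *Bag3*.
Hspa8: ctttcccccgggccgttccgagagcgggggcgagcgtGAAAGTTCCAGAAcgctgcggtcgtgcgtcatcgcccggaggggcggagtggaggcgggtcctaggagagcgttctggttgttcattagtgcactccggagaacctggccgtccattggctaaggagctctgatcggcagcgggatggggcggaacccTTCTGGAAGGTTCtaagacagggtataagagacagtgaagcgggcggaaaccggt
Hsph1: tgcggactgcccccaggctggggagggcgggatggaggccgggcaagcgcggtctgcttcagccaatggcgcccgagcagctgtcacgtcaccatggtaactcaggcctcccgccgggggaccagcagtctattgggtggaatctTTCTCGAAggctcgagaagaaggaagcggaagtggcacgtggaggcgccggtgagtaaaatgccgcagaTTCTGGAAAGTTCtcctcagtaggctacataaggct
Dnajb1: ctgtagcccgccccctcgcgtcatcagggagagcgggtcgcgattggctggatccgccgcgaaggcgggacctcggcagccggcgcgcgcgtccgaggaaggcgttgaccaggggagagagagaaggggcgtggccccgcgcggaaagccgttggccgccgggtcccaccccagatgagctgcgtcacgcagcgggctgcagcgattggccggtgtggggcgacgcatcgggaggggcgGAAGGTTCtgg
Hspe1: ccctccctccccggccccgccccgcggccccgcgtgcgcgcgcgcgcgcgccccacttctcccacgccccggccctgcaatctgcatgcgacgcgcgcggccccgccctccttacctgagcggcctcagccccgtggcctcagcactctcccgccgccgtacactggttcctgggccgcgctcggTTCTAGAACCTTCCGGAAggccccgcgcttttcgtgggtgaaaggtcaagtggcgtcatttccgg
Bag3: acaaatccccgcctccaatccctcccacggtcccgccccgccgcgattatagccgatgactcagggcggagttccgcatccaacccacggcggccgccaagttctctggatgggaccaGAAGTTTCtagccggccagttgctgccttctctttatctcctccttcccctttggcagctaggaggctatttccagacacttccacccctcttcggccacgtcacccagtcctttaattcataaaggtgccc

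*Hspa8* carried runs of 3 blocks at chr8:50080301-50080313 and, from 55 to 43 bases before its start, at chr8:50080459-50080471, and *Hsph1* carried one from 36 to 24 bases before. *Dnaja1* carried GAACTTTCCAGAA from 9 to 21 bases past its start. The windows of *Hspd1* and *Hspe1*, which are transcribed away from each other, shared 211 bases and 1 run of 4 blocks at chr9:64084262-64084279, which both promoters count. *Dnajb1*, *Hspb1* and *Bag3* held pairs only, in *Dnajb1* from 11 to 4 bases before its start. A match describes these letters and was not tested as a binding site.

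The heat shock protein genes together took between 0.274% and 0.376% of the reads on genes. The share was 0.367% ± 0.0115 (SD, n = 3) in DMF_4h against 0.302% ± 0.01 (SD, n = 3) in DMSO_4h. In the other 8 groups it lay between 0.286% and 0.313%. Levels of a gene over all groups are given as CPM, read counts scaled to library totals by TMM, and levels are not compared between genes, since transcript lengths were not used. DMF_4h had the highest mean of the 10 groups for 6 of the 10 genes. For 3 of them, *Hspa8*, *Hsph1* and *Dnajb1*, every DMF_4h library lay above all 27 other libraries. The share of all genes with such an order was not counted, so the 6 and 3 of 10 have no background here. Between DMF and DMSO alone at 4 h, 26.3% of all genes did not overlap in either direction. *Hspa8* had a mean of 1329 CPM in DMF_4h, with a lowest library of 1293 CPM, while the highest library of any other group had 1108 CPM. Its next group was CBD_24h with a mean of 1060 CPM, and its lowest was DMF_24h with a mean of 865.9 CPM, whose highest library (921 CPM) lay below all libraries of the other groups. *Hsph1* had a mean of 300.6 CPM in DMF_4h, and no other library exceeded 250.4 CPM. *Dnajb1* had a mean of 87.3 CPM in DMF_4h, and no other library exceeded 71.2 CPM. *Hspd1* varied least, with a ratio of 1.33 between the highest and the lowest of the 30 libraries, against 5.01 for *Hspb1*, 4.64 for *Hspa1b* and 2.51 for *Bag3*.

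**Figure D1:**
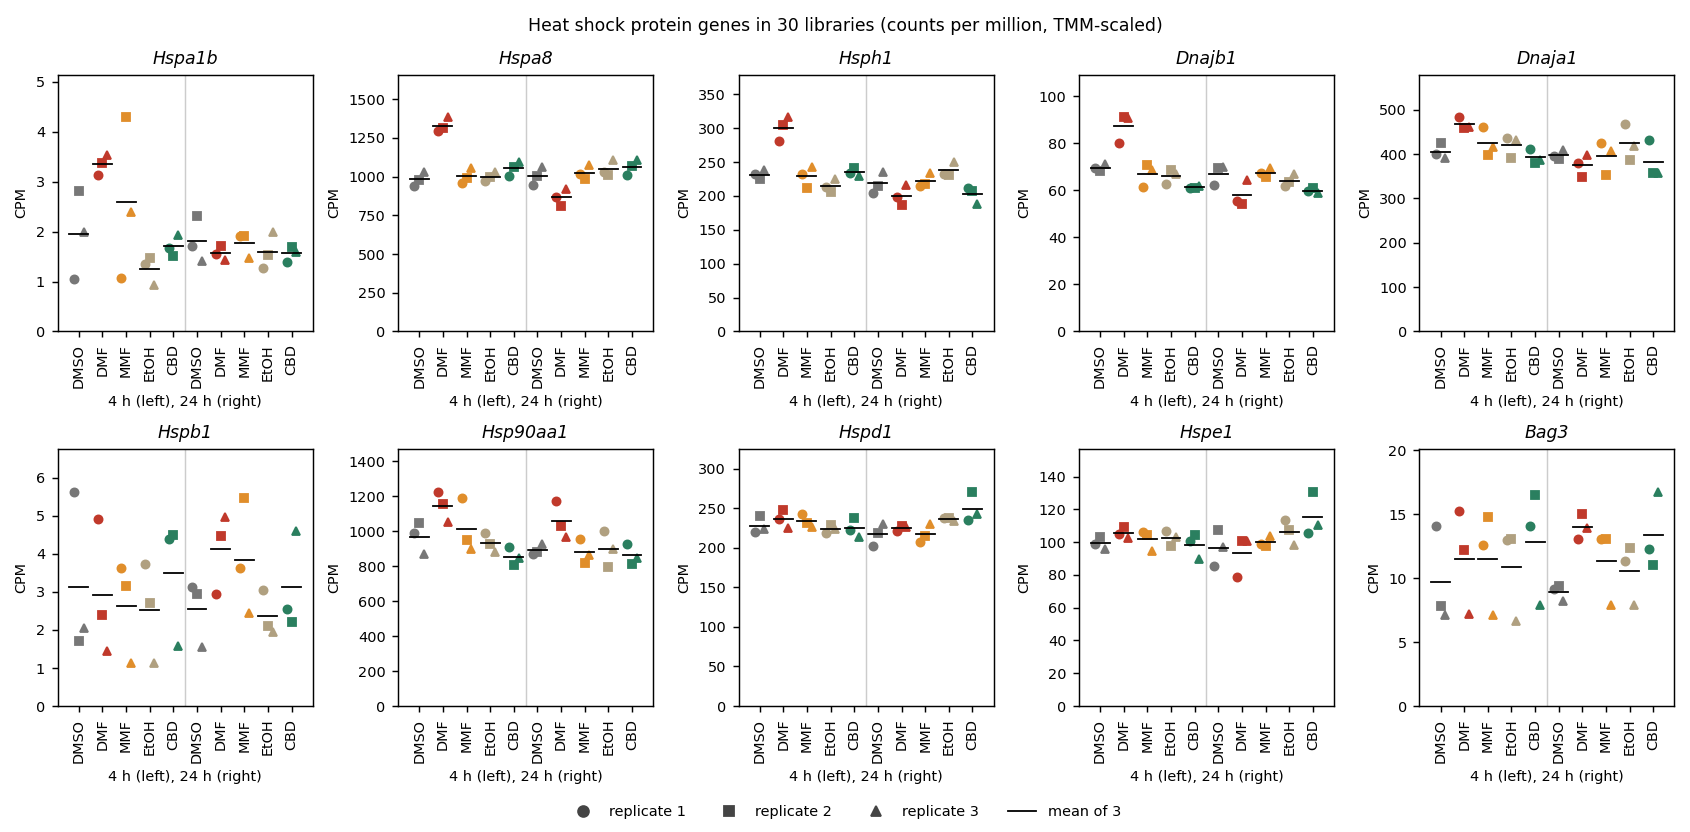
Levels of the 10 heat shock protein genes in CPM (vertical axes from 0, TMM-scaled) in the 10 groups, 4 h left and 24 h right of the grey line, with 1 point per library shaped by its replicate number and a bar at the mean of 3. The DMF_4h points of *Hspa8*, *Hsph1* and *Dnajb1* lie above all others, those of *Hspd1* do not, and for *Bag3* replicate 3 (triangles) is lowest in 8 of 10 groups.

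The labelled cell type was checked with marker genes. All 9 neuronal markers, among them *Map2*, *Tubb3* and *Rbfox3*, were detected, with a summed level between 3277 and 4648 CPM. The 7 astrocyte markers summed to between 1799 and 4799 CPM, so astrocyte RNA was present too, and the 5 markers of the oligodendrocyte lineage to between 451 and 1075 CPM. The 6 microglial markers summed to between 0.945 and 6.63 CPM. The 3 endothelial and mural markers listed summed to between 8.33 and 24.7 CPM, and the 4 proliferation markers to between 69 and 273 CPM. In these bulk libraries, fewer cells of a type and less RNA per cell cannot be told apart. Libraries of replicate 3 had the lowest astrocyte sum in 10 of 10 groups, with a median of 2067 CPM against 3673 CPM in replicate 1 and 4041 CPM in replicate 2.

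The comparison of DMF with DMSO at 4 h asks how neurons respond early to the drug. After 4 h, *Hspa8* and *Hsph1* were higher with DMF, by about the same moderate factor, and the J-domain genes, *Hspa1b* and *Hsp90aa1* had every DMF library above every DMSO library without passing the test. *Hspa8* had normalized counts of 25626, 26139 and 27577 with DMF and of 18853, 19494 and 20594 with DMSO. The groups did not overlap, and the ratio was nearly the same in the 3 replicate numbers, with log2 values of 0.44, 0.42 and 0.42. The log2 fold change (log2FC, of normalized counts with a pseudocount of 1) was 0.43 (SE 0.089, 95% interval 0.22 to 0.63, limma, adjusted p = 0.0433), a factor of 1.35. *Hsph1*, the exchange factor that recharges HSP70 for disaggregation, had normalized counts of 5574, 6066 and 6302 with DMF and of 4650, 4485 and 4763 with DMSO. Again each DMF library was above each DMSO library, and the log2FC was 0.37 (SE 0.073, 95% interval 0.20 to 0.53, limma, adjusted p = 0.0375).

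*Dnajb1*, the J-domain partner of inducible HSP70, had 1589, 1813 and 1812 normalized counts with DMF and 1389, 1358 and 1425 with DMSO. Its groups did not overlap, and the log2FC of 0.32 had an adjusted p of 0.0612 (limma). *Dnaja1*, a J-domain protein of general folding, had 9576, 9156 and 9186 with DMF and 7988, 8488 and 7819 with DMSO. Its log2FC of 0.20 had an adjusted p of 0.163 (limma), again without overlap. *Hspa1b* had 62.2, 67.3 and 70.5 normalized counts with DMF and 21.0, 56.1 and 39.9 with DMSO. The DMSO libraries were widely spread, and the log2FC of 0.86 came with a 95% interval from 0.09 to 1.63 and an adjusted p of 0.201 (limma). *Hsp90aa1* had 24249, 23035 and 20995 with DMF and 19770, 20886 and 17431 with DMSO, with a log2FC of 0.23 and an adjusted p of 0.263 (limma).

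Neither gene of the mitochondrial chaperonin passed the test. *Hspd1* had 4687, 4921 and 4492 normalized counts with DMF and 4388, 4797 and 4476 with DMSO, and the groups overlapped. Its log2FC was 0.05 (95% interval -0.12 to 0.21), and that of its partner *Hspe1* was 0.08 (95% interval -0.07 to 0.23). *Bag3* had 302, 243 and 143 with DMF and 282, 157 and 142 with DMSO, and *Hspb1* had 97.6, 47.7 and 28.8 with DMF and 113, 33.9 and 41.0 with DMSO. In both genes the spread between replicate numbers was larger than the difference between groups, with 95% intervals from -0.50 to 0.99 for *Bag3* and from -1.30 to 1.15 for *Hspb1*.

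In all, 2 of the 10 genes were called higher and 0 lower with DMF at 4 h, where 3.41% of all genes tested were called in either direction. The median log2FC was 0.24 over the 10 genes and 0.0022 over all genes. In 6 of them the groups did not overlap, all with DMF higher, against 26.3% of all genes in either direction. With the replicate number as a block, 6 were called, all higher, which added *Hspa1b* (adjusted p = 0.0189), *Dnajb1* (adjusted p = 0.00137), *Dnaja1* (adjusted p = 0.00773) and *Hsp90aa1* (adjusted p = 0.00364), and 23% of all genes were called. Without a block, DESeq2 called *Hspa8*, *Hsph1* and *Dnajb1* (adjusted p = 2.4e-06, 0.00054 and 0.0161), and 7.21% of all genes. By edgeR, *Hspa8* and *Hsph1* were called (adjusted p = 0.0417 and 0.0394) and *Dnajb1* was not (adjusted p = 0.0542), with 3.51% of all genes called. The calls of *Hspa8* and *Hsph1* were lost whichever of the 6 libraries was left out, with limma's adjusted p between 0.0905 and 0.148 for *Hspa8* and between 0.0651 and 0.147 for *Hsph1*, while the log2FC kept to between 0.40 and 0.46 and between 0.33 and 0.42. Among the markers, *Tubb3* (log2FC -0.64, limma, adjusted p = 0.025) of 9 neuronal markers and *Pdgfrb* (log2FC -1.26, limma, adjusted p = 0.0137) of the endothelial and mural markers were lower with DMF at 4 h, the latter list summing to between 8.33 and 10.1 CPM against 16.7 to 24.7 CPM, and 0 of the astrocyte, oligodendrocyte and proliferation markers and of the 2 microglial markers tested were called. With the replicate block, 3 of 4 proliferation markers and 1 of 9 neuronal markers were higher, and 2 of 9 neuronal, 2 of 7 astrocyte and 2 of 5 oligodendrocyte lineage markers were lower. The part of these cells in the changes of the heat shock genes was not tested.

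**Figure D2:**
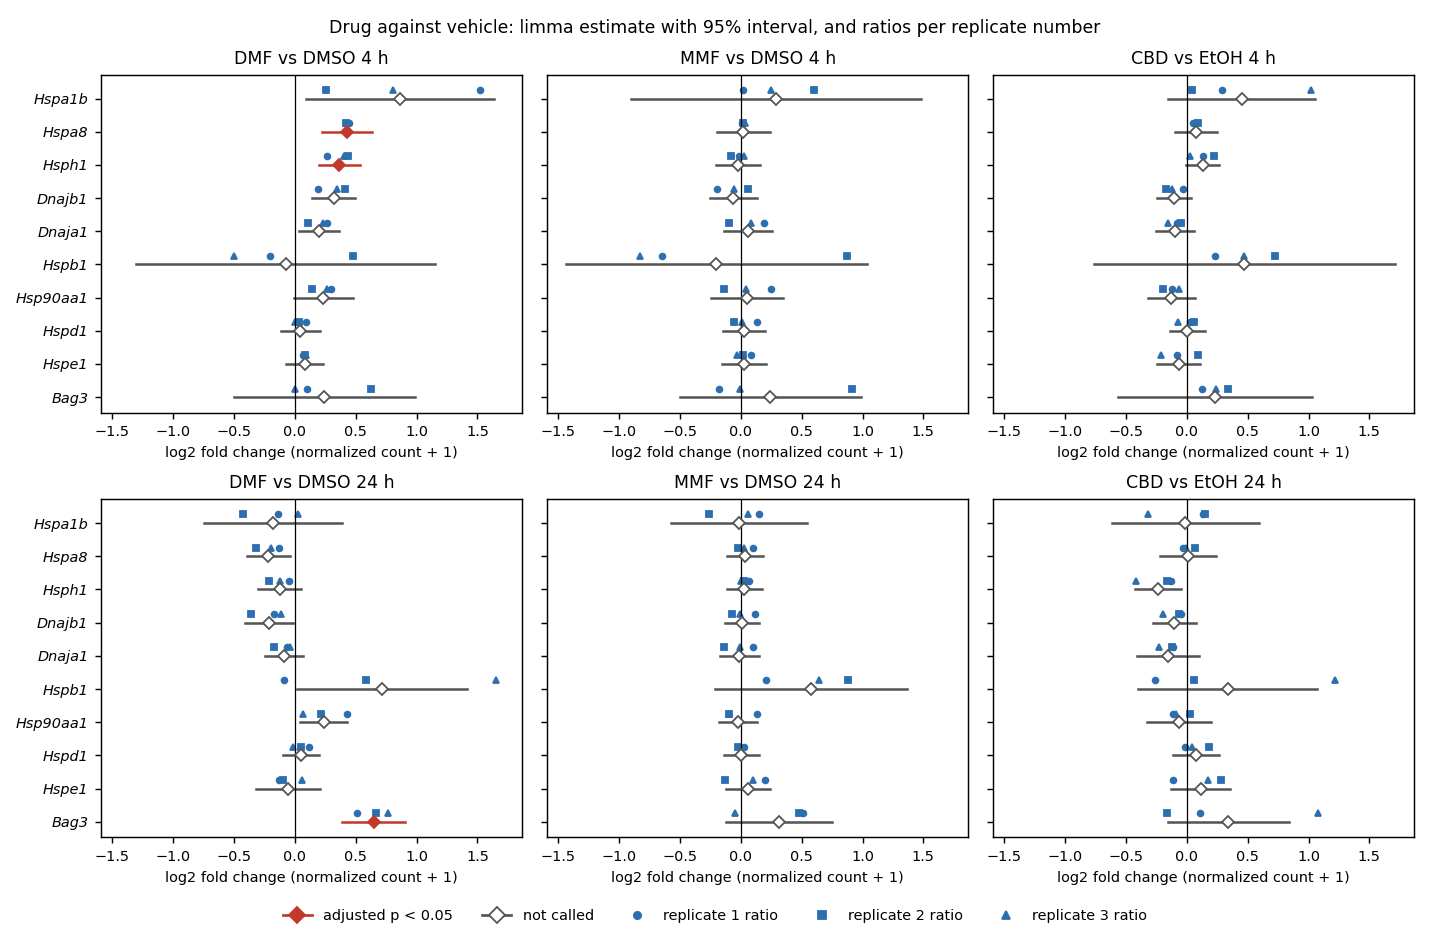
Log2 fold change (horizontal axis) of each heat shock protein gene in the 6 comparisons of a drug with its vehicle, as limma estimate with its 95% interval (diamonds, filled red where called) and as ratio per replicate number (small blue symbols). Called are *Hspa8* and *Hsph1* with DMF at 4 h and *Bag3* with DMF at 24 h.

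At 24 h, *Bag3* was higher with DMF and none of the other 9 genes passed the test. *Bag3* had normalized counts of 241, 277 and 256 with DMF and of 169, 174 and 150 with DMSO. All DMF libraries exceeded all DMSO libraries, and the log2FC was 0.65 (SE 0.115, 95% interval 0.39 to 0.91, limma, adjusted p = 0.0185), a factor of 1.57. *Hspb1*, which *Bag3* protein is known to bind, had 54.3, 82.6 and 91.8 with DMF and 57.8, 54.6 and 28.6 with DMSO. It was higher in 2 of 3 replicate numbers, with a log2FC of 0.72 (95% interval 0.02 to 1.41, limma, adjusted p = 0.269).

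*Hspa8* had 15970, 14903 and 16981 normalized counts with DMF at 24 h and 17480, 18620 and 19487 with DMSO. Here each DMF library lay below each DMSO library, with a log2FC of -0.22 (95% interval -0.39 to -0.04, limma, adjusted p = 0.191). *Dnajb1* had 1019, 998 and 1187 with DMF and 1145, 1284 and 1283 with DMSO, with overlap and a log2FC of -0.21 (limma, adjusted p = 0.242). *Hsp90aa1* had 21614, 18911 and 17762 with DMF and 16051, 16259 and 16986 with DMSO. It was higher without overlap, with a log2FC of 0.24 (95% interval 0.04 to 0.43, limma, adjusted p = 0.191), close to its value at 4 h. The log2FC of *Hsph1* was -0.13, of *Dnaja1* -0.09, of *Hspa1b* -0.18, of *Hspd1* 0.05 and of *Hspe1* -0.06, none of them called. In 3 of the 10 genes, *Bag3*, *Hspa8* and *Hsp90aa1*, the groups did not overlap, against 22.8% of all genes.

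Of the 10 genes, 1 was called with DMF at 24 h, where 3.97% of all genes were called. With the replicate block, 3 were called, *Bag3* (adjusted p = 0.00374) and *Hsp90aa1* (adjusted p = 0.0455) higher and *Hspa8* (adjusted p = 0.0263) lower, and 12.9% of all genes. The call of *Bag3* was lost without replicate 1, 2 or 3 of DMSO (limma, adjusted p = 0.0868, 0.0516 and 0.0716) and without replicate 2 of DMF (limma, adjusted p = 0.084), and when the variance came from the 30 libraries together (limma, adjusted p = 0.352). Over the 10 groups *Bag3* was lowest in replicate 3 in 8 groups, as were the astrocyte markers in 10, and DMF_24h was 1 of the 2 groups where it was not. With DMF at 24 h, the 4 proliferation markers were all lower, summing to between 69 and 82.4 CPM against 168 to 187 CPM, and 3 of the 5 oligodendrocyte lineage markers were lower, the list summing to between 554 and 716 CPM against 716 to 862 CPM. The astrocyte markers summed to between 2780 and 4799 CPM with DMF and to between 2401 and 4012 CPM with DMSO, with 1 of 7, *Aldh1l1*, lower, and 0 neuronal markers were called. With the block, 1 astrocyte marker was higher and 4 lower, and 1 neuronal marker was higher and 2 lower. Their part in the values of *Bag3* was not tested.

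The change of the DMF effect between 4 h and 24 h was tested as an interaction over 12 libraries. It was lower at 24 h for *Hspa8*, whose log2FC was 0.65 smaller (SE 0.109, 95% interval of the difference -0.88 to -0.41, limma, adjusted p = 0.00679). The same held for *Dnajb1*, with a difference of -0.54 (95% interval -0.79 to -0.29, limma, adjusted p = 0.0219), and for *Hsph1*, with a difference of -0.49 (95% interval -0.72 to -0.27, limma, adjusted p = 0.0205). These 3 of 10 genes compare with 4.12% of all genes. *Dnaja1* had a difference of -0.29 (limma, adjusted p = 0.0973) and *Hspa1b* one of -1.04 (limma, adjusted p = 0.203), and *Dnaja1* passed with the replicate block (adjusted p = 0.0296), where 13.2% of all genes were called. *Hsp90aa1* and *Hspd1* had differences of 0.0006 and 0.0033, with 95% intervals from -0.29 to 0.29 and from -0.19 to 0.20. *Bag3* had a difference of 0.40 with a 95% interval from -0.42 to 1.23, so its higher effect at 24 h than at 4 h was not detectable at this spread. Only 1 of the 3 calls remained without replicate 2 of DMF_4h, replicate 2 of DMF_24h or replicate 3 of DMSO_24h. All 4 proliferation markers were lower in the same interaction test, with a median difference of -1.25, and so was 1 of the 5 oligodendrocyte lineage markers. Across the 30 libraries the summed proliferation markers had a correlation of 0.662 with *Hspa8*, 0.587 with *Hsph1* and 0.585 with *Dnajb1*. For the same 3 genes in this order, it was -0.558, -0.55 and -0.639 with the endothelial and mural markers. With the astrocyte markers it was -0.585, -0.403 and -0.5. With the neuronal, oligodendrocyte lineage and microglial markers it lay between -0.362 and 0.472. These correlations are given as a description of points that share groups and depth. The part of the marked cells in the change of these 3 genes was not tested.

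Directly between the times, DMF_24h was lower than DMF_4h for 5 of 10 genes, against 15.5% of all genes. *Hspa1b* had 31.9, 35.0 and 29.6 normalized counts at 24 h and 64.0, 69.1 and 72.2 at 4 h, a log2FC of -1.07 (95% interval -1.52 to -0.61, limma, adjusted p = 0.0102). This was the largest fall of the 5, and the groups did not overlap. *Hspa8* had 17767, 16556 and 18934 at 24 h and 26366, 26864 and 28224 at 4 h, a log2FC of -0.61 (limma, adjusted p = 0.0054). *Dnajb1* (log2FC -0.59), *Hsph1* (log2FC -0.58) and *Dnaja1* (log2FC -0.31) were lower as well, with adjusted p of 0.00564, 0.00379 and 0.0341 from limma. *Hspd1*, *Hspe1*, *Hsp90aa1*, *Bag3* and *Hspb1* were not called. The 4 proliferation markers were lower too, with a median log2FC of -1.52 and sums between 69 and 82.4 CPM at 24 h against 220 to 273 CPM at 4 h, 1 oligodendrocyte lineage marker was higher and 1 lower, and 1 astrocyte and 1 endothelial or mural marker were higher. Their part in the fall of the 5 genes was not tested. Without replicate 2 of DMF_4h, 3 genes were called. In the DMSO libraries, 0 of the 10 genes were called between 24 h and 4 h by limma, edgeR or DESeq2, and 0 had an unadjusted p under 0.05. The log2FC of the 10 lay between -0.15 and 0.03. Of all genes, limma and edgeR called 0% and DESeq2 0.344%. The 24 h and 4 h libraries of MMF, CBD and EtOH also gave 0 called genes among the 10, by limma, edgeR and DESeq2. By limma and edgeR, 0% of all genes were called in each, while DESeq2 called 0.346% with MMF, 0.404% with CBD and 0% with EtOH. The 1 unadjusted p under 0.05 among the 10 was that of *Hsph1* with CBD.

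**Figure D3:**
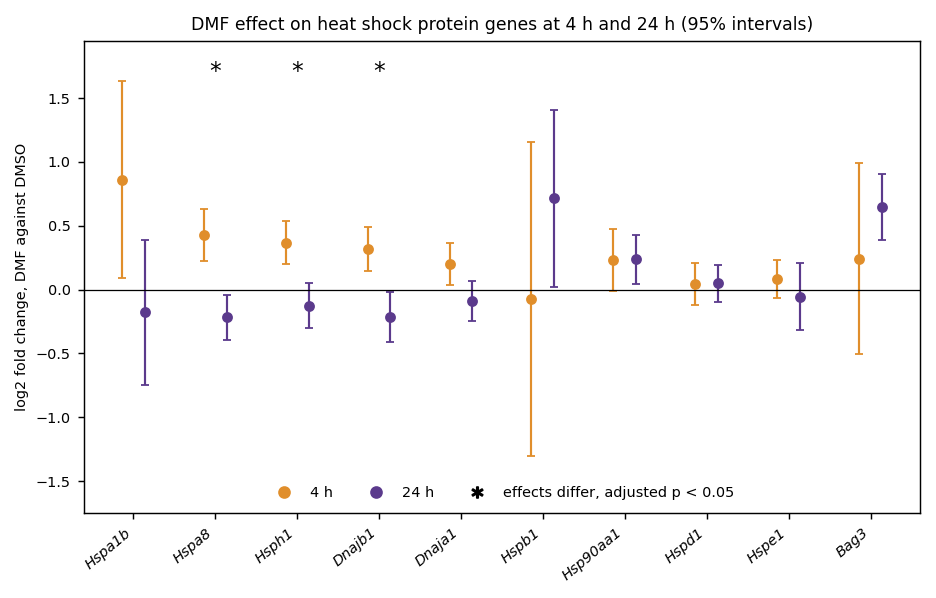
DMF effect (log2 fold change against DMSO, vertical axis, with 95% intervals) on each heat shock protein gene at 4 h (orange) and 24 h (purple), with a star where the effects differed in the interaction test. The stars are over *Hspa8*, *Hsph1* and *Dnajb1*, whose estimates lay above 0 at 4 h and below 0 at 24 h. At 24 h alone, none of these 3 was called (limma, adjusted p = 0.191, 0.457 and 0.242).

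MMF was given at the same dose and times as DMF, and both are compared with the same DMSO libraries. With MMF, 0 of the 10 genes were called at 4 h, where 0% of all genes were called, and 0 at 24 h, where 0.00707% of all genes were called. In both comparisons 0 of them had an unadjusted p under 0.05, and edgeR and DESeq2 called 0. *Hspa8* had 17360, 18063 and 19240 normalized counts with MMF at 4 h and 17226, 17789 and 18790 with DMSO, with overlap and a log2FC of 0.02 (95% interval -0.19 to 0.24). Its log2FC at 24 h was 0.03 (95% interval -0.11 to 0.18). *Hsph1* had a log2FC of -0.02 at 4 h (95% interval -0.21 to 0.16) and 0.03 at 24 h (95% interval -0.11 to 0.17). *Bag3* had 254, 255 and 153 with MMF at 24 h and 178, 183 and 158 with DMSO, a log2FC of 0.31 (95% interval -0.12 to 0.75). It was above DMSO in replicates 1 and 2 and slightly below it in replicate 3. *Hspb1* had a log2FC of 0.58 at 24 h (95% interval -0.21 to 1.36) and was higher in 3 of 3 replicate numbers. The MMF effect did not differ between times for any of the 10 genes at the threshold used (0 called by limma, edgeR and DESeq2, 0 with an unadjusted p under 0.05, and 0% of all genes called).

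DMF carries a methyl ester at both ends and MMF at one end, and their libraries were compared directly as 1 pair of compounds at 2 times, with p-values adjusted over all genes. At 4 h, *Hspa8* had 25374, 25850 and 27245 normalized counts with DMF and 18867, 19638 and 20930 with MMF. *Hsph1* had 5519, 5999 and 6226 against 4568, 4198 and 4823, and *Dnajb1* had 1574, 1793 and 1790 against 1206, 1405 and 1361. In these 3 of 10 genes every DMF library lay above every MMF library, against 24.2% of all genes without overlap in either direction, a share near that of the 10. The log2 differences were 0.40 for *Hspa8* (95% interval 0.17 to 0.63), 0.39 for *Hsph1* (95% interval 0.19 to 0.58) and 0.38 for *Dnajb1* (95% interval 0.17 to 0.59), with adjusted p of 0.0869, 0.0682 and 0.0818 from limma. So 0 of 10 genes passed the test, where 1.61% of all genes did, while 3 had an unadjusted p under 0.05 (17.4% of all genes), edgeR called 0 and DESeq2 called 3 (5.24% of all genes). With the replicate block, *Hspa8*, *Hsph1*, *Dnajb1* and *Hsp90aa1* were called higher with DMF than with MMF (4 of 10), and 23.6% of all genes. The 95% interval for *Hspd1* was -0.16 to 0.18 and that for *Hspe1* -0.12 to 0.22.

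At 24 h, DMF lay below MMF without overlap for *Hspa8*, with a log2 difference of -0.25 (95% interval -0.43 to -0.07), and for *Dnajb1*, with -0.23 (95% interval -0.41 to -0.05). It lay above MMF without overlap for *Hsp90aa1*, with 0.26 (95% interval 0.03 to 0.48). The 3 of 10 genes without overlap compare with 22.7% of all genes, a share near that of the 10. None passed the test (0 of 10, against 3.56% of all genes), 3 had an unadjusted p under 0.05 (17.3% of all genes), edgeR called 0 and DESeq2 called 1 (5.87% of all genes). With the replicate block these 3 genes were called, and 12.2% of all genes. The difference of *Bag3* was 0.33 (95% interval -0.11 to 0.77). The 4 proliferation markers were all lower with DMF than with MMF at 24 h, with a median log2 difference of -1.39. So were 3 of the 5 oligodendrocyte lineage markers, and no other marker was called. At 4 h, 1 of the 2 endothelial and mural markers tested was lower with DMF, and no other marker was called. The part of these cells in the differences between DMF and MMF was not tested.

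Among the other chaperones, 0 further cytosolic genes were called between DMF and MMF at 4 h and 2 at 24 h, *Dnajb5* (log2 difference 0.27, limma, adjusted p = 0.0436), a J-domain protein that was higher with DMF, and *Hspa2* (log2 difference -0.59, limma, adjusted p = 0.0365), an HSP70 that was lower. Of all genes, 1.61% were called between DMF and MMF at 4 h and 3.56% at 24 h. Of the chaperones of the endoplasmic reticulum (ER), 8 of 16 were higher with DMF at 4 h and 4 of 15 lower at 24 h. The 4 with the smallest p at 4 h were *Hspa5* (log2 difference 0.85), *Dnajc3* (log2 difference 0.94), *Creld2* (log2 difference 1.14) and *Pdia4* (log2 difference 0.78), and those called at 24 h were *Calr* (log2 difference -0.60), *Hsp90b1* (log2 difference -0.54), *Pdia6* (log2 difference -0.42) and *Pdia4* (log2 difference -0.43).

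CBD, at a lower dose and in another vehicle, called 0 of the 10 genes at 4 h, where 0.00705% of all genes were called, and 0 at 24 h, where 0.114% were called. By edgeR and DESeq2 the number was 0 in both, and 0 genes had an unadjusted p under 0.05 at 4 h and 1, *Hsph1*, at 24 h. *Hsph1* had 4598, 4746 and 4472 normalized counts with CBD at 4 h and 4184, 4056 and 4395 with EtOH, which did not overlap, as in 9.95% of all genes, with a log2FC of 0.13 (95% interval -0.01 to 0.26). At 24 h it had 4009, 3930 and 3569 with CBD and 4388, 4404 and 4761 with EtOH. There the CBD libraries were below all EtOH libraries, where 15.9% of all genes did not overlap, with a log2FC of -0.24 (95% interval -0.43 to -0.05, limma, adjusted p = 0.443). At 4 h the groups also did not overlap for *Hspa1b* (higher, log2FC 0.45) and *Dnajb1* (lower, log2FC -0.11). So 2 of the 10 genes lay higher and 1 lower without overlap at 4 h. At 24 h, 2 of the 10, *Hsph1* and *Dnajb1* (log2FC -0.10), lay lower without overlap and 0 higher. *Hspa8* had a log2FC of 0.07 at 4 h (95% interval -0.10 to 0.25) and 0.01 at 24 h (95% interval -0.22 to 0.24). *Bag3* had 233, 210 and 317 with CBD at 24 h and 215, 235 and 150 with EtOH, so that the log2FC of 0.34 came mainly from replicate 3. The CBD effect did not pass the test of a change between times for any of the 10 genes (0 called by limma, edgeR and DESeq2). Of all genes, limma and edgeR called 0% and DESeq2 0.117%. An unadjusted p under 0.05 was found for 1 of the 10 genes, *Hsph1* (difference -0.37, limma, adjusted p = 0.878). Of the markers, 0 were called with CBD at 4 h by limma. At 24 h, 2 of 9 neuronal markers were lower with CBD, and no other marker was called. The neuronal markers summed to between 3677 and 3904 CPM with CBD at 24 h, against 3944 to 4648 CPM with EtOH. With the block, 1 astrocyte and 1 oligodendrocyte lineage marker were higher at 4 h, and 2 neuronal markers were lower at 24 h. The part of these cells in the values of the 10 genes was not tested.

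The effects of CBD and DMF, each against its own vehicle and at its own dose, differed at 4 h for 1 of the 10 genes, against 0.999% of all genes. *Dnajb1* had a log2FC of -0.11 with CBD and 0.32 with DMF, and the difference was -0.43 (SE 0.09, 95% interval -0.62 to -0.23, limma, adjusted p = 0.0471). This call was made in 1 of the 12 fits that left out a library, the one without replicate 1 of DMF_4h, and was lost in the other 11. The difference was -0.36 for *Hspa8* (limma, adjusted p = 0.107), -0.36 for *Hsp90aa1* (limma, adjusted p = 0.2), -0.30 for *Dnaja1* (limma, adjusted p = 0.13) and -0.24 for *Hsph1* (limma, adjusted p = 0.2). With the replicate block these 5 genes were called, all lower with CBD, and 10.4% of all genes. At 24 h, 0 of the 10 effects differed by limma, edgeR or DESeq2, and 0 had an unadjusted p under 0.05. Of all genes, limma called 0.391%, edgeR 0.412% and DESeq2 1.65%.

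The rest of the chaperone network was described with 3 lists. Of 43 further cytosolic chaperones, co-chaperones and heat shock factors, 42 were listed and 41 tested. With DMF at 4 h, 1 of the 41 was called, *Fkbp4*, a co-chaperone of HSP90, which was higher by a log2FC of 0.33 (limma, adjusted p = 0.0392). The list's median log2FC was 0.06, and 3.41% of all genes were called. The fit with the block called 6 genes of the list higher and 2 lower, 19.5% of the 41 against 23% of all genes. *Hsf1*, which encodes heat shock factor 1 itself, had a log2FC of -0.0040 (limma, adjusted p = 0.989). *Hspa1a* was listed at 0 or 1 reads and not tested. With DMF at 24 h, 2 of the 41 were called, both higher. *Hspb8*, a small heat shock protein that works with *Bag3*, had 496, 500 and 397 normalized counts against 209, 185 and 133 with DMSO, a log2FC of 1.41 (limma, adjusted p = 0.00327). *Hspa4l*, an HSP110-type relative of *Hsph1*, had a log2FC of 0.33 (limma, adjusted p = 0.0217). The median of the list was -0.0067, and 3.97% of all genes were called. With the block 6 genes of the list were higher and 1 lower, 17.1% of the 41 against 12.9% of all genes.

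Of 14 further mitochondrial chaperones and proteases, 13 were tested and 0 called with DMF at either time, with medians of -0.07 at 4 h and 0.10 at 24 h. With the block, 0 were called at 4 h, where 23% of all genes were called. At 24 h the block called 3 higher, 23.1% of the 13 against 12.9% of all genes. *Hspa9*, the mitochondrial HSP70, had a log2FC of 0.13 at 4 h (limma, adjusted p = 0.317) and 0.32 at 24 h (limma, adjusted p = 0.108). Of the 16 ER chaperones, 10 were higher with DMF at 4 h and 0 lower, with a median log2FC of 0.62. Those with the smallest p were *Creld2* (log2FC 1.12), *Hsp90b1* (log2FC 0.81), *Hspa5* (log2FC 0.88) and *Hyou1* (log2FC 0.69). At 24 h, 3 of 15 tested were lower, *Calr* (log2FC -0.54), *Hsp90b1* (log2FC -0.48) and *Pdia6* (log2FC -0.35). With MMF and with CBD, 0 genes of the 3 lists were called at either time by limma. With the block and CBD at 4 h, 11 of 15 ER chaperones and 2 of 41 cytosolic genes were higher, against 2.33% of all genes, with MMF at 24 h 2 of 41 cytosolic genes were higher, against 1.38% of all genes, and with CBD at 4 h the ER median was 0.45 against 0.04 for the 10 heat shock protein genes.

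**Figure D4:**
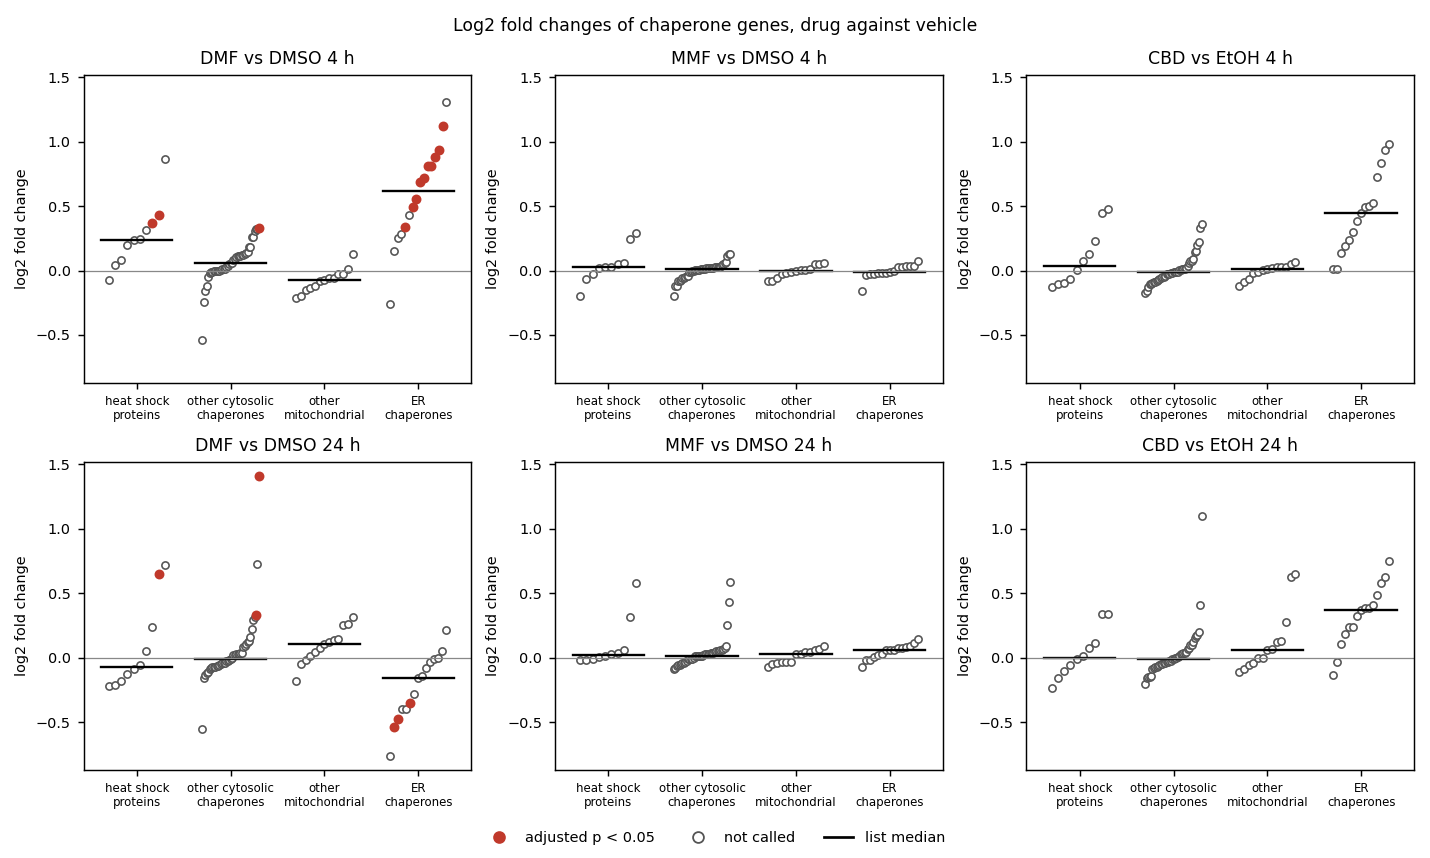
Log2 fold changes (vertical axis) of the heat shock protein genes and of 3 further chaperone lists in the 6 comparisons of a drug with its vehicle, 1 point per gene tested, filled red where called, with a bar at the list median. With DMF at 4 h the median is 0.24 for the heat shock proteins, 0.06 for other cytosolic, -0.07 for other mitochondrial and 0.62 for ER chaperones.

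Across the 30 libraries, with the mean of each replicate number subtracted from log2 CPM, the genes fell into different patterns. *Dnajb1* and *Hsph1* had a correlation of 0.84, *Hspa8* and *Hsph1* of 0.81, *Bag3* and *Hspb1* of 0.81, and *Hspd1* and *Hspe1* of 0.70. With the mean of the other 9 genes, the correlation was 0.73 for *Hspa8*, 0.68 for *Hsph1* and 0.66 for *Dnajb1*, but 0.02 for *Bag3* and -0.09 for *Hspb1*. The 8 other genes most like the mean of the 10, among 14920 genes, were *Stip1* (r = 0.92), *LOC102556092* and *Wwc3* (r = 0.85 each), *Ttl* (r = 0.85), *Ak6* (r = 0.85), *Wwc2* (r = 0.85), *Ctbs* (r = 0.85) and *Usp16* (r = 0.84). *Stip1* encodes the adaptor that joins HSP70 to HSP90. It had a mean of 253.4 CPM in DMF_4h and of 189.2 CPM in DMF_24h, the highest and the lowest of the 10 groups, and with DMF at 4 h its log2FC was 0.26 (limma, adjusted p = 0.0611). These correlations are given as a description, since the 30 points share groups, libraries and depth.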

How the data were processed

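Poly(A) RNA of 30 libraries was sequenced, 3 per group. According to the study's methods and the submitters' processing notes, the authors used Cutadapt 4.4 and Trimmomatic 0.39 for trimming and HISAT2 2.2.1 for alignment to mRatBN7.2, then HTSeq 2.0.3 for counting on Ensembl genes and DESeq2 1.40.2 for normalization. The deposited signal values are normalized counts: the authors scaled each library's gene counts by its size factor, in 1 table per pair of groups. The strand setting of HTSeq is not given in the sources used here. Of the 19 tables, 13 were used. Columns of the authors' fold changes and p-values were not used, nor were 4 tables of CBD against fumarates and 2 of DMSO against EtOH. Whole reads were recovered for 100% of values within 0.01 read, and tables differed in 0 of them.

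The test was limma 3.58.1 (R 4.3.3) on log2(normalized count + 1), after the filterByExpr function of edgeR 4.0.16 (all 10 genes passed in every comparison), with Benjamini-Hochberg adjustment over all genes and a threshold of 0.05. For interactions, the recovered reads of 12 libraries were scaled by median-ratio factors. Alternatives were the replicate block, edgeR's quasi-likelihood test, DESeq2 1.42.0, no filter, a pseudocount of 0.1, TMM scaling, the variance of all 30 libraries together and leaving out each library. Same-numbered libraries deviated together in 13 of 13 comparisons (correlations from 0.129 to 0.668, above the minimum of 0.1, against at most 0.185 between numbers), so the numbers were taken as pairs. The minimum did not separate pairs from other libraries in every comparison. Between numbers the correlation reached 0.134 with MMF against DMSO at 4 h, where the lowest within a number was 0.129. In DMSO at 24 h against 4 h these values were 0.185 and 0.162. The pairing comes from these correlations, since the labels say only that each experiment was repeated 3 times. The study's methods name no block, so the main test has none. P-values measure the spread between these libraries, which may be technical in part. The scripts were tested on simulated data. Plots were drawn with matplotlib 3.10.9 in Python 3.11.15.

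Named are the 10 genes, every called gene of a list in a drug comparison (the 4 with the smallest p where more than 5 were called), *Hspa9*, *Hspa1a*, *Hsf1*, and the 8 genes most correlated with the mean of the 10. *Stip1* at 4 h and the markers were named after their values were seen. The genes, lists and rules were chosen with earlier results of these data known.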

Additional observations from a re-analysis of the deposited data

Results flagged for a closer look

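The DMF effect, as log2FC against DMSO, differed between 24 h and 4 h by -0.65 for *Hspa8*, by -0.49 for *Hsph1* and by -0.54 for *Dnajb1*, each by the interaction test of limma (adjusted p = 0.00679, 0.0205 and 0.0219). In *Hspa8* and *Hsph1* the log2 ratio to DMSO was above 0 in 3 of 3 replicate numbers at 4 h and below 0 in 3 of 3 at 24 h, and the same was the case in *Dnajb1*. At 24 h alone, none of these 3 genes was called by limma without the block. The effects of CBD and DMF at 4 h differed by -0.43 for *Dnajb1* in the same kind of test (limma, adjusted p = 0.0471), with CBD below its vehicle and DMF above its own in 3 of 3 replicate numbers each, at different doses and in different vehicles. Neither effect alone was called (limma, adjusted p = 0.99965 with CBD and 0.0612 with DMF). The call was lost in most fits that left out a library. The share of all genes with such signs over the replicate numbers was not counted.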

How the results depend on the processing

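For the count of heat shock protein genes called, 112 of 126 values under other settings and 112 of 138 values with 1 library left out were within 1.5 times the main count. These totals include counts of 0 that stayed at 0. They also include comparisons where limma called 0% of all genes, where a change was hardly possible. The totals therefore do not measure how stable the calls are, and the comparisons with calls are given singly. With DMF at 4 h (2 called), 6 were called with the replicate block, 1 without the filter and 0 with any library left out. DESeq2 called *Dnajb1* in addition to *Hspa8* and *Hsph1* (7.21% of all genes). With DMF at 24 h (1 called), 3 were called with the block, 0 with the spread of all 30 libraries and 0 to 1 with a library left out. DMF against MMF at 4 h (0 called) gave 4 with the block, 3 with DESeq2 and 3 with the spread of all libraries (9.26% of all genes). The same pair at 24 h (0 called) gave 3, 1 and 1 (4.55% of all genes) under these settings and 0 to 1 with a library left out, where the 1 came without replicate 3 of DMF_24h. With a library left out, DMF at 24 h against 4 h (5 called) gave 3 to 5, and the change of its effect (3 called) gave 1 to 3. For the latter, the block gave 4 (13.2% of all genes) and DESeq2 gave 4 (6.88% of all genes). The difference between the effects of CBD and DMF at 4 h (1 called) gave 5 with the block, 3 with DESeq2 (3.42% of all genes), 2 with the spread of all libraries (2.73% of all genes), 0 without the filter and 0 to 1 with a library left out. Fewer libraries also leave fewer degrees of freedom; otherwise the cause was not tested. Apart from the calls given beside the results, the block changed no call of a heat shock protein gene in the drug comparisons. No called log2FC changed sign in 780 refits of single genes, and 42 refits of uncalled genes did. Depth limits *Hspa1b*, with 14 to 86 reads per library, and *Hspb1*.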

Other observations

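*Hspa9*, the mitochondrial HSP70, had 3664, 6308 and 10035 normalized counts in the 3 CBD libraries at 24 h and 4044, 3982 and 3900 in the EtOH libraries. Its log2FC of 0.63 did not pass the test (limma, adjusted p = 0.541). The EtOH libraries lay close together, while CBD was below EtOH in replicate 1 and above it in replicates 2 and 3. In the same libraries *Hspd1* had log2 ratios to EtOH of -0.01, 0.18 and 0.05 and *Hspe1* of -0.11, 0.28 and 0.17, and *Bag3* of 0.11, -0.16 and 1.07. *Hspb1* had a log2 ratio of 1.21 in replicate 3 and of -0.26 and 0.06 in the others.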
